A study of Mus musculus with 12 samples.

Results

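The genes described here encode 6 heart receptors for catecholamines, acetylcholine, adenosine and dopamine: *Drd2*, *Adora1*, *Chrm2*, *Adrb1*, *Adra1a* and *Adra1b*. They were chosen by symbol, and all 6 matched 1 identifier each among the 48526 genes of the count files. RNA came from dissociated ventricular cells of adult male mice that carried the *Cntn2*-EGFP transgene, either Ncam-1 WT or Ncam-1 KO, after incubation with 50 nM TMRM, a mitochondrial dye used to pick out cardiomyocytes. Cells positive for dye and GFP were collected as Purkinje cells (PCs), the conducting cells of the ventricle, and cells positive for dye only as ventricular myocytes (VMs). There were 3 libraries each of WT PC, KO PC, WT VM and KO VM. The reporter is a BAC transgene kept in CD1, the *Ncam-1*-/- line was kept in C57BL/6, and no source used here says whether libraries came from separate animals, so that p-values measure the spread between these libraries, which may be technical. The *Ncam-1*-/- allele is a germline knockout and is not limited to the heart.

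All 6 proteins are receptors that signal through heterotrimeric G proteins. The β1-adrenergic receptor couples to Gs and raises cyclic AMP, which speeds conduction and strengthens contraction. The muscarinic M2, adenosine A1 and dopamine D2 receptors couple to Gi and Go, which lower cyclic AMP and, in atrial and nodal cells, open potassium channels through released βγ subunits. The α1-adrenergic receptors couple to Gq and activate phospholipase C. Sympathetic and vagal nerves supply the conduction system and use these receptors to set its rate and velocity.

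Mitochondrial genes took 79.0% to 91.3% of all counts, and all other genes together had 1532393 to 6761356 counts in a library. *Ncam1* had 83, 34 and 116 counts in WT PCs 1, 2 and 3 and 0, 1 and 1 in KO PCs, and it had 6, 0 and 9 counts in WT VMs and 0 in each KO VM. The library WT PC 2 stood apart from the rest, with 63.9% of its read pairs not aligned against 18.8% to 24.7% elsewhere and counts on 11847 genes against 13571 to 18129. Without it, 108 genes passed the adjustment in WT PC against WT VM in place of 13, 425 in place of 166 in PCs against VMs over both genotypes, and 4 of 12037 in place of 0 in KO PC against WT PC (edgeR). Summed over 13 PC markers (*Cntn2*, *Gja5*, *Etv1* and others, without any receptor), normalized counts were 1258 to 3726 in WT PCs, 457 to 1923 in KO PCs and 211 to 314 in VMs. The PC fractions also held more RNA of other cells. Summed markers of fibroblasts were 668 to 1676 in PCs and 72.1 to 421 in VMs, those of endothelium 518 to 1670 and 70.7 to 553, and those of leukocytes 266 to 696 and 14.1 to 145.

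The promoters of *Drd2* and *Chrm2* are printed because *Drd2* was almost absent from VMs while *Chrm2* was abundant in every library. Both are RefSeq windows on build GRCm38.p6, plus strand, 250 bases before to 50 after the start site, chr9:49340153-49340452 for *Drd2* and chr6:36387834-36388133 for *Chrm2*. The RefSeq start site used for *Drd2*, 49340403, lies upstream of the GENCODE gene start, 49340627. For *Chrm2* both are 36388084. Capitals mark GGGCGG or its reverse complement CCGCCC, the GC box.
Drd2: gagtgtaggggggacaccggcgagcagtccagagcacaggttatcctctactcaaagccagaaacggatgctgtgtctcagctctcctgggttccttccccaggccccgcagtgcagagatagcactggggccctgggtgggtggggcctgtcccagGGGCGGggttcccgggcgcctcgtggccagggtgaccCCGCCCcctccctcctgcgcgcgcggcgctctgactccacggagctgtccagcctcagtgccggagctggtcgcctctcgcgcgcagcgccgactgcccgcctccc
Chrm2: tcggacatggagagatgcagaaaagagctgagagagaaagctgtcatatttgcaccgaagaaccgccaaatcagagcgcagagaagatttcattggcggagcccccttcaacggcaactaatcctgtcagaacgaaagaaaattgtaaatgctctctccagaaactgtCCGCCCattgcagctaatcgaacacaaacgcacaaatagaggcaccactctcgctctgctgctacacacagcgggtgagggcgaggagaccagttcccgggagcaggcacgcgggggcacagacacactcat
The *Drd2* window was 70.3% G and C with 2 GC boxes, and the *Chrm2* window was 52.7% with 1. Over all 32851 windows the median was 52.7%, and 35.7% held a GC box. Neither window held TATAAA or TTTATA, which 13.6% of all windows did. These matches describe letters only. The data hold no measurement at the promoters.

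*Drd2* (ENSMUSG00000032259) encodes the dopamine D2 receptor and lies on chromosome 9 from 49340627 to 49408177 on the plus strand of GRCm38. In VMs it was at the floor of detection, taken as 3 counts in a library, with 3, 3 and 0 counts in WT VMs 1 to 3 and 1, 3 and 0 in KO VMs. WT PCs 1 to 3 had 228, 77 and 596 counts and KO PCs 3, 24 and 131. Scaled to a common library size, these were 99.4, 150 and 344 normalized counts in WT PCs and 5.3, 30.3 and 87.5 in KO PCs. Every PC library lay above all VM libraries of its genotype, as they did for 7.29% of genes tested in WT and 8.66% in KO, although the lowest, KO PC 1, held only 3 counts.

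Over both genotypes, *Drd2* was higher in PCs than in VMs by 5.66 on the log2 scale (standard error 0.706), with an adjusted p of 0.000687 in edgeR's quasi-likelihood test. An exact permutation test of cell type within genotype gave the smallest p its 400 relabellings allow, 0.005. *Drd2* was the only one of the 6 receptors that passed the adjustment there, where 1.47% of 11323 genes tested passed. Its adjusted p stayed between 2.32e-05 and 0.00645 when any 1 of the 12 libraries was left out. Against the floor in the VMs of the same genotype, the mean of the PC libraries was at least 75.6-fold higher in WT and 10.6-fold higher in KO. That bound in KO was 4.61-fold without KO PC 3, and KO PC 1 was itself at the floor. The fitted change was 6.72 (standard error 0.816, adjusted p = 0.0316) for WT PC against WT VM, where 0.11% of 11822 genes passed, and 4.55 (0.946, adjusted p = 0.0297) for KO PC against KO VM, where 0.872% of 10779 passed. *Drd2* was again the 1 receptor called in each. *Drd2* and *Adora1* in WT, and *Drd2* and *Chrm2* in KO, were the 2 of 6 with an unadjusted p under 0.05 in edgeR, as were 6.36% and 9.7% of all genes.

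The calls within a genotype were lost when most of the single libraries were left out, while the unadjusted p of *Drd2* in edgeR stayed low. It was 8.2e-08 to 0.000167 in WT and 6.2e-06 to 0.00518 in KO over the 6 such fits of each. Over all genes, 1 passed the adjustment in WT without any 1 of the WT VM libraries, in place of 13 with all libraries. In WT the adjusted p was 0.156 without WT PC 3, 0.185 without WT VM 1, 0.339 without WT VM 2 and 0.243 without WT VM 3, while without WT PC 2 it was 0.000249. No label says whether libraries of 1 replicate number are paired, and with a replicate block in edgeR the adjusted p in WT was 0.0845. In KO it was 0.0794 without KO PC 2, 0.166 without KO PC 3, 0.161 without KO VM 1, 0.0758 without KO VM 2 and 0.122 without KO VM 3. In KO PC against KO VM *Drd2* also missed the adjustment with all libraries in DESeq2 (adjusted p = 0.0976), in limma voom (0.24) and in 1 edgeR fit of all 12 libraries (0.13), and filterByExpr removed it. The fitted change remained between 6.02 and 7.17 in WT and between 3.31 and 5.79 in KO over these fits.

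**Figure D1:**
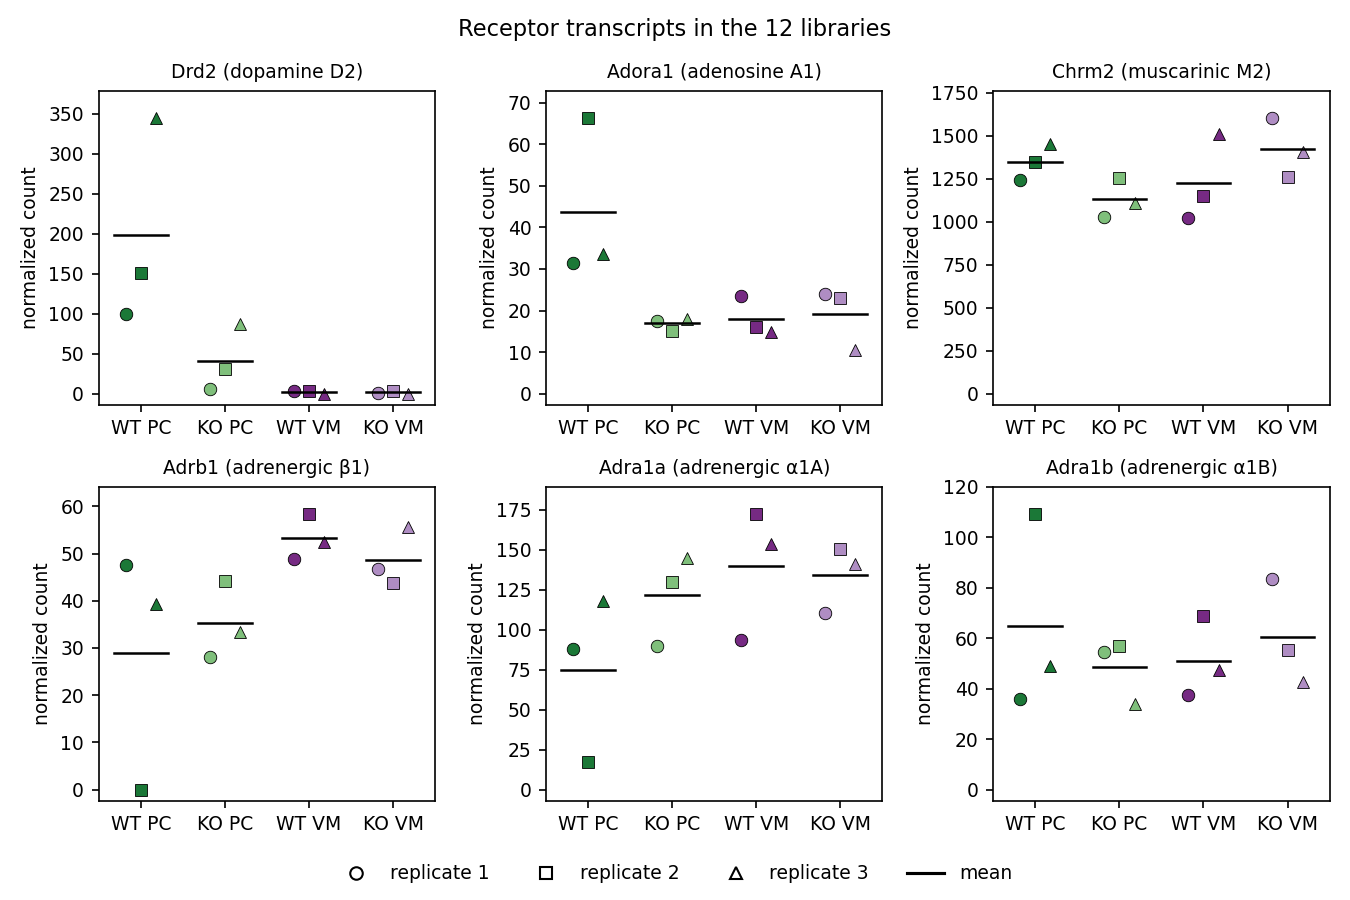
Normalized counts (y axis, linear) of each receptor in the WT PC, KO PC, WT VM and KO VM libraries, with a symbol for each replicate and a bar at the mean of 3 libraries. *Drd2* reached 344 in WT PCs and at most 3.9 in VMs, *Adora1* was highest in the 3 WT PC libraries, and *Adrb1* was at 0 in WT PC 2.

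*Drd2* had lower counts in KO PCs than in WT PCs, without overlap between the groups, as did 4.7% of genes tested. The log2 change was -2.18 with a 95% interval of -3.86 to -0.50, an unadjusted p of 0.0159 and an adjusted p of 0.993 in edgeR's test, so that the difference did not pass the adjustment. The exact permutation test gave p = 0.1, the smallest that 3 libraries against 3 allow. The study reported *Drd2* as downregulated in KO PCs in its sequencing. It also reported this from quantitative RT-PCR on sorted PCs, which is not part of these counts. None of 11754 genes passed the adjustment in this comparison in edgeR, 7 did in DESeq2 and 1 in limma voom, *Drd2* not among them, and 378, or 3.22%, had an unadjusted p under 0.05 in edgeR. *Drd2* and *Adora1* were the 2 of 6 receptors among them. Over the alternatives the adjusted p of *Drd2* ran from 0.000162, without a filter on low counts, to 0.992. The test of a difference between the genotype effect in PCs and that in VMs gave -2.15 (standard error 1.83, unadjusted p = 0.258 in edgeR), with the VM side resting on counts at the floor. None of the 6 receptors had an unadjusted p under 0.05 in edgeR in that test of a difference, and 2.9% of 11323 genes did.

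*Cntn2*, the gene whose reporter defined the sort, was set beside *Drd2* in the PC libraries. *Cntn2* had 543, 231 and 922 counts in WT PCs 1 to 3 and 22, 39 and 677 in KO PCs 1 to 3. KO PC 1 and KO PC 2 were thus low for both genes, and raw counts share the depth of their library. In normalized counts KO PC 3 had 452 for *Cntn2*, within the 237 to 533 of WT PCs, and 87.5 for *Drd2*, below the 99.4 to 344 of WT PCs. The number of *Drd2* counts per *Cntn2* count was 0.42, 0.333 and 0.646 in WT PCs and 0.136, 0.615 and 0.194 in KO PCs. The KO and WT ranges overlapped. Relative to *Cntn2*, *Drd2* differed by -0.83 on the log2 scale (exact permutation test, p = 0.3), and relative to the summed counts of the 13 PC markers by -1.27 (exact permutation test, p = 0.2), both chosen after the data were seen. In RNA from sorted pools, fewer cells of a type and less RNA per cell cannot be told apart.

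**Figure D2:**
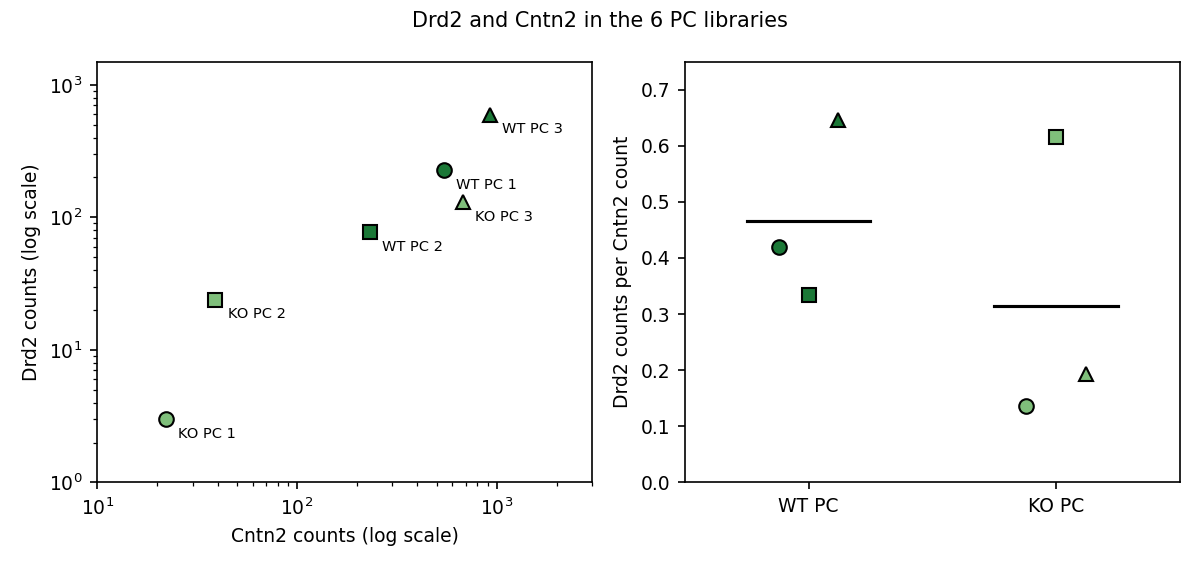
*Drd2* against *Cntn2* counts in the 6 PC libraries on log axes (left), and *Drd2* counts per *Cntn2* count with the mean of each genotype as a bar (right). KO PC 1 and KO PC 2 lie low for both genes, and the ratio in KO PC 2, 0.615, lies close to the highest WT ratio, 0.646.

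*Drd2* starts the stretch of chromosome 9 that ends in the disrupted gene, 94.0 kb from *Ncam1*, and the genes between them are *Ankk1* and *Ttc12*. *Ankk1*, which encodes a kinase with ankyrin repeats, had 14, 0 and 72 counts in WT PCs 1 to 3, 0, 0 and 5 in KO PCs and 0 in every VM library. In WT PC against WT VM its unadjusted p in edgeR was 0.0118 and its adjusted p 0.628. *Ttc12*, a tetratricopeptide repeat gene, was present in every library at 63 to 324 counts in WT PCs and 51 to 178 in KO PCs, and its change of -0.41 between them had a 95% interval of -1.10 to 0.28. *Ncam1* itself, at 0 or 1 count in KO PCs, had an adjusted p of 0.255 in KO PC against WT PC.

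*Adora1* (ENSMUSG00000042429) encodes the adenosine A1 receptor and lies on chromosome 1 from 134199223 to 134235431 on the minus strand. It had 72, 34 and 58 counts in WT PCs 1 to 3, 10, 12 and 27 in KO PCs, 25, 17 and 20 in WT VMs and 17, 18 and 9 in KO VMs. The normalized counts were 31.4, 66.3 and 33.5 in WT PCs, and 10.4 to 24.0 in the 9 other libraries. Every WT PC library therefore lay above every other library, as for 1.07% of 11323 genes tested over all 12. *Adora1* differed by 1.21 in WT PC against WT VM (unadjusted p = 0.0369, adjusted p = 0.762, edgeR) and by -1.33 in KO PC against WT PC (unadjusted p = 0.0361, adjusted p = 0.993, edgeR), 2 comparisons that share the WT PC libraries. The level in KO PCs was 16.9 ± 1.55 and that in KO VMs 19.2 ± 7.61 (SD, n = 3), and their log2 difference of -0.17 had an interval of -1.26 to 0.93. Without WT PC 2, the change was 0.83 against WT VMs and -0.94 in KO PCs. Their unadjusted p in edgeR was then 0.0536 and 0.0746. The genotype effect in PCs minus that in VMs was -1.41, with an interval of -2.86 to 0.05. *Mybph*, on the opposite strand, overlaps exons of *Adora1*, and it had at most 1 count in a library.

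*Chrm2* (ENSMUSG00000045613), on chromosome 6 from 36388084 to 36528414, encodes the muscarinic M2 receptor through which acetylcholine slows the heart. It was the most abundant of the 6 per kilobase of exon in all 4 groups, with 222 ± 17.3 normalized counts per kb in WT PCs, 187 ± 19.2 in KO PCs, 203 ± 42.0 in WT VMs and 235 ± 28.5 in KO VMs (SD, n = 3). It made up 57.0% to 83.4% of the summed per-kilobase level of the 6 genes in a library. In normalized counts, WT PCs 1 to 3 had 1242, 1346 and 1452, KO PCs 1028, 1258 and 1109, WT VMs 1022, 1148 and 1512, and KO VMs 1604, 1260 and 1407. Across 12 libraries in which *Drd2* ran from 0 to 344, *Chrm2* thus stayed within 1022 and 1604.

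The differences of *Chrm2* between groups were small. In WT PC against WT VM the log2 change was 0.10 (interval -0.39 to 0.60), in KO PC against WT PC -0.25 (-0.71 to 0.22) and in KO VM against WT VM 0.20 (-0.14 to 0.54). KO PCs differed from KO VMs by -0.33 (interval -0.63 to -0.03, unadjusted p = 0.0332, adjusted p = 0.451, edgeR), and the groups were separated only by the gap between 1258 and 1260 normalized counts. In that comparison 6.92% of genes were lower in KO PCs without overlap and 9.7% had an unadjusted p under 0.05 in edgeR. For *Chrm2* the genotype effect in PCs minus that in VMs was -0.46 (interval -1.01 to 0.08). Its unadjusted p was 0.0881 and its adjusted p 0.999 in edgeR. The long noncoding RNA *9330158H04Rik* on the opposite strand shares exon sequence with *Chrm2* and had up to 102 counts. No source used here states whether counting used strand, so that reads of the overlap cannot be told apart.

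*Adrb1* (ENSMUSG00000035283) encodes the β1-adrenergic receptor, the main target of noradrenaline in myocytes, and lies on chromosome 19 from 56722199 to 56733113. Its counts were 109, 0 and 68 in WT PCs 1 to 3, 16, 35 and 50 in KO PCs, 52, 62 and 71 in WT VMs and 33, 34 and 48 in KO VMs. Normalized, these were 47.5, 0 and 39.3 in WT PCs, 28.1, 44.2 and 33.4 in KO PCs, 48.8, 58.4 and 52.5 in WT VMs and 46.7, 43.7 and 55.6 in KO VMs. All WT PC libraries lay below all WT VM libraries, as did 6.56% of genes tested, and KO PC 2 overlapped the KO VMs. Over both genotypes the log2 change of PCs against VMs was -0.61 (interval -1.54 to 0.31, adjusted p = 0.666) in edgeR, while the exact permutation test on log2 normalized counts plus 2 gave p = 0.01. WT PC 2 held a count of 0, and without that library the change in edgeR was -0.37 (unadjusted p = 0.093). Between genotypes *Adrb1* differed by 0.21 in PCs (interval -1.77 to 2.20) and by -0.13 in VMs (-0.67 to 0.40). The direction in PCs turned to -0.31 without WT PC 2.

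*Adra1a* (ENSMUSG00000045875, chromosome 14, 66635251 to 66771168) and *Adra1b* (ENSMUSG00000050541, chromosome 11, 43774606 to 43901210) encode the α1A and α1B receptors. *Adra1a* had 88.1, 17.6 and 118 normalized counts in WT PCs 1 to 3, 89.6, 130 and 145 in KO PCs, 93.8, 172 and 154 in WT VMs and 110, 150 and 141 in KO VMs. Only WT PC 2 stood apart, with 9 counts. *Adra1b* had 35.7, 109 and 49.1 in WT PCs, 54.5, 56.8 and 34.1 in KO PCs, 37.5, 68.7 and 47.3 in WT VMs and 83.4, 55.2 and 42.8 in KO VMs. The groups overlapped for both genes in every comparison of genotype or cell type. WT PC 2 was thus the lowest of all libraries for *Adra1a* and the highest for *Adra1b*, and per kb the ratio of *Adra1a* to *Adra1b* was 0.0623 there and 0.512 to 1.65 in the other 11.

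For *Adra1a* the log2 change was -0.89 in WT PC against WT VM (interval -2.15 to 0.38) and 0.67 in KO PC against WT PC (-0.57 to 1.91), and without WT PC 2 these were -0.46 and 0.25. For *Adra1b*, without WT PC 2, they were -0.29 and 0.16, both of opposite sign to the values with all libraries. In KO PC against KO VM the change of *Adra1a* was -0.12 (-0.61 to 0.37) and in KO VM against WT VM -0.07 (-0.55 to 0.41). For *Adra1b* the change was 0.26 (-0.84 to 1.36) in WT PC against WT VM, -0.34 (-1.06 to 0.38) in KO PC against KO VM, -0.39 (-1.52 to 0.75) in KO PC against WT PC and 0.23 (-0.41 to 0.86) in KO VM against WT VM. None of these had an unadjusted p under 0.05 in edgeR. A change of 2-fold is inside several of these intervals.

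**Figure D3:**
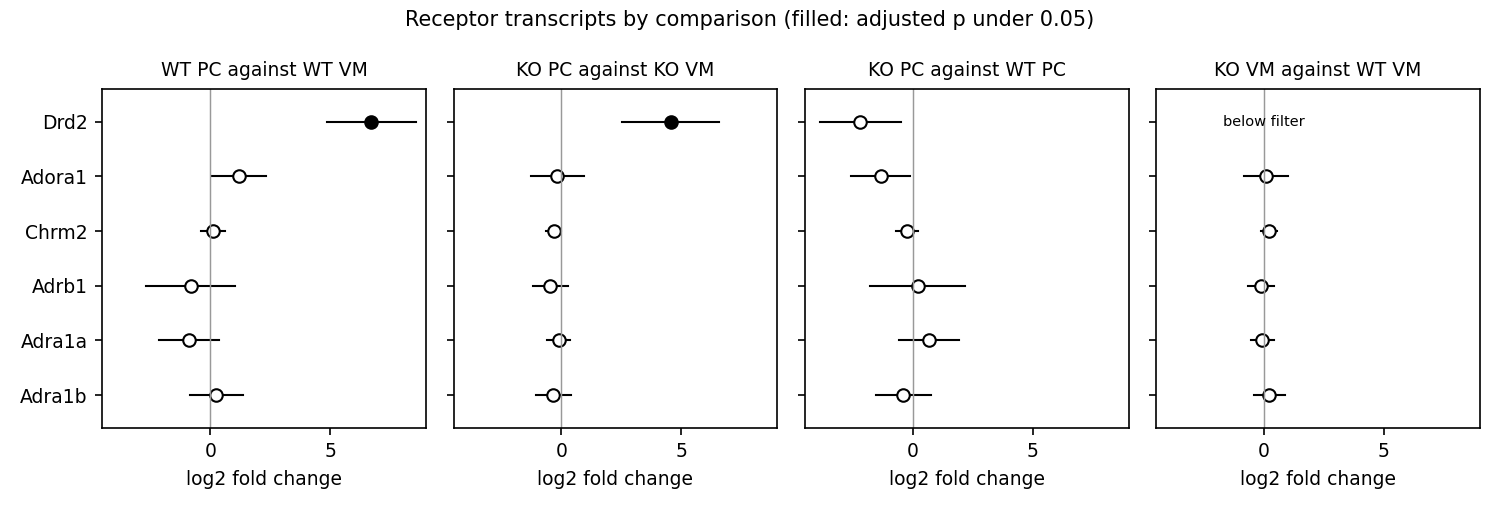
Log2 fold changes (x axis) of the 6 receptors in 4 comparisons, with 95% intervals from edgeR and filled points for an adjusted p under 0.05. *Drd2* is filled in both comparisons of PCs with VMs, at 6.72 and 4.55, and no receptor is filled between genotypes. *Drd2* was below the count filter in KO VM against WT VM.

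Between KO and WT VMs 0 of the 5 receptors tested passed the adjustment, where 0.0373% of 10737 genes passed and 5.12% had an unadjusted p under 0.05 in edgeR, and 0 of the 5 had one. *Drd2* was not tested there. Over both cell types, 0 of 6 passed, against 0.0265% of 11323 genes, and 0 had an unadjusted p under 0.05 in edgeR. The median log2 change of the members was -0.32 in KO PC against WT PC and 0.07 in KO VM against WT VM, beside 0.00 and -0.02 over all genes tested.

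Per kilobase of exon, the order of the levels in WT PCs was *Chrm2*, *Drd2* (77.7 ± 50.8), *Adra1b* (19.1 ± 11.6), *Adrb1* (8.56 ± 7.51), *Adra1a* (8.54 ± 5.90) and *Adora1* (7.56 ± 3.39; SD, n = 3). The ranges of the first 3 did not overlap, and those of the last 4 did from each to the next. In KO PCs *Drd2* stood at 16.1 ± 16.6 per kb, and its range overlapped that of *Adra1b*, 14.3 ± 3.70. In VMs of both genotypes the 3 adrenergic receptors lay between 14.4 and 17.9 on average and overlapped each other. *Adora1* followed below them, at 3.13 ± 0.81 in WT and 3.32 ± 1.32 in KO, and *Drd2* came last.

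The 17 other dopamine, adrenergic, muscarinic and adenosine receptor genes were at or near 0. In 7 of them, *Drd4*, *Drd5*, *Adrb3*, *Adra2a*, *Chrm1*, *Chrm4* and *Chrm5*, no library held a count. *Adora3*, the A3 receptor, reached 9 counts in a library, *Chrm3* 8 and *Drd3* 5. None of the 17 passed the count filter in any comparison, so that differences among them were not detectable at this depth.

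Genes of the signalling pathways below the receptors were read from lists of 162 genes. In PCs against VMs over both genotypes 3 of 105 tested passed the adjustment, all higher in PCs, 10 did in DESeq2 and 13 in limma voom, beside 1.47%, 4.01% and 4.23% of all genes, and 23 (21.9%) had an unadjusted p under 0.05, beside 11.4% of all genes. *Rgs7*, a regulator that speeds the shut-off of Gi and Go signals, was higher by 1.87 (standard error 0.395, adjusted p = 0.0276). *Plcb1*, a phospholipase C driven by Gq, was higher by 1.82 (0.409, adjusted p = 0.039), and *Rgs5*, which is also a pericyte marker, by 1.58 (0.372, adjusted p = 0.0485). Summed markers of smooth muscle and pericytes, *Rgs5* included, were 3971 to 6625 in PCs and 4278 to 4949 in VMs. Of the 7 markers of that list that were tested, 6 were higher in PCs with a median of 1.37, 4 of them with an unadjusted p under 0.05 in edgeR, and 2 passed the adjustment, *Rgs5* included. Whether other cells in the PC fractions contributed to these differences was not tested.

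*Rgs7* was highest in WT PCs on average and next in KO PCs, where KO PC 1 lay within the range of the KO VMs. It had 63, 35 and 202 counts in WT PCs 1 to 3, 6, 22 and 38 in KO PCs, 7, 10 and 13 in WT VMs and 11, 11 and 9 in KO VMs. In normalized counts the means were 70.8 ± 44.7 in WT PCs, 21.2 ± 9.34 in KO PCs, 8.53 ± 1.71 in WT VMs and 13.4 ± 2.65 in KO VMs (SD, n = 3). The groups overlapped between the lowest WT PC library, 27.5, and the highest KO PC library, 27.8. Between KO and WT PCs the change was -1.70 (unadjusted p = 0.0219, adjusted p = 0.993, edgeR). In KO PC against KO VM the change was 0.70 (unadjusted p = 0.204, adjusted p = 0.762, edgeR). The difference of the genotype effects was -2.33 (unadjusted p = 0.00962, adjusted p = 0.999, edgeR).

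By family, over both genotypes, 5 of 14 receptor kinases, arrestins and RGS genes tested had an unadjusted p under 0.05 in PCs against VMs in edgeR, all higher in PCs, with a median change of 0.51 beside 0.02 over all genes. *Rgs6*, a relative of *Rgs7* that acts on muscarinic signals in the heart, was among them at 0.91 (adjusted p = 0.21). These shares are read beside the 11.4% of all genes. Of 17 G protein subunits, 2 had such a p, or 11.8%. They were the inhibitory α subunit *Gnai1* at 1.25 and *Gng11*, an endothelial γ subunit, at 1.02 (-0.16 in WT, 2.14 in KO). Of 19 adenylyl cyclases and phosphodiesterases 3 did, *Pde7b* at 0.63 and *Adcy4* at 1.88 higher and *Pde3a*, the cardiac phosphodiesterase inhibited by cyclic GMP, lower at -0.65. Among 20 genes of the protein kinase A group 6 did. The kinase inhibitor genes *Pkib* (adjusted p = 0.0511) and *Pkia* (-0.43, adjusted p = 0.0971) had opposite signs, *Pkib* with 0 counts in all 3 KO VMs, and the cyclic AMP sensor *Rapgef3* had an adjusted p of 0.0947. Among phospholipase C and protein kinase C genes 5 of 19 did, the inositol trisphosphate receptors *Itpr1* at 0.54 and *Itpr2* at 0.80 included. The potassium channel subunit *Kcnj3* was at -0.29 and its partner *Kcnj5* at -0.03. Of 14 genes for ligand synthesis, uptake and breakdown, *Entpd1*, which breaks down extracellular ATP, had a change of 1.75 (adjusted p = 0.0947).

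Within WT, 15 of 108 pathway genes tested (13.9%) had an unadjusted p under 0.05 in WT PC against WT VM in edgeR and 15 of 100 in KO PC against KO VM, beside 6.36% and 9.7% of all genes. In WT they included *Rgs7* at 3.01 and the inhibitory α subunit gene *Gnai2* at 0.61. In KO *Rgs5* passed the adjustment at 2.32 (adjusted p = 0.0292), and *Gng11* was at 2.14, *Gnb4* at 1.16 and *Akap12* at 1.90 without passing. *Gnas*, the gene of the Gs α subunit, held at most 16 counts in a library and its locus carries overlapping transcripts, so that its level is uncertain.

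Between genotypes no pathway gene passed the adjustment in edgeR in PCs, in VMs or over both. In KO PC against WT PC 2 of 109 had an unadjusted p under 0.05 in edgeR (1.83%, beside 3.22% of all genes), both lower in KO: *Rgs7* and *Rgs2*, a regulator of Gq signals. *Rgs2* differed by -1.62, with 207, 1607 and 443 normalized counts in WT PCs 1 to 3 and 223, 218 and 277 in KO PCs, so that WT PC 2 held the highest value. Without that library the change was -0.44 (unadjusted p = 0.138, edgeR). In KO VM against WT VM 12 of 96 (12.5%) had such a p, beside 5.12%, 6 higher and 6 lower. *Rgs2* was at -0.84 (adjusted p = 0.493), *Kcnj3* at 0.57 (adjusted p = 0.664), *Grk5*, a kinase that desensitizes β1 receptors, at 0.69 (adjusted p = 0.811) and *Maob*, which degrades dopamine, at 0.60 (adjusted p = 0.584). The largest changes among the 12 were *Pde5a* at -1.87, *Entpd1* at -1.42 and *Rgs12* at 1.28, each with an adjusted p of 0.931 in edgeR. In the same comparison all 8 endothelial markers were lower in KO VMs, with a median of -0.84 and 2 unadjusted p under 0.05 in edgeR, and the markers tested of leukocytes and of smooth muscle and pericytes had medians of -0.76 and -0.59. Summed endothelial markers were 553, 289 and 293 in WT VMs 1 to 3 and 70.7, 334 and 274 in KO VMs 1 to 3. Those of leukocytes were 145, 77.2 and 54.7 in WT VMs and 14.1, 78.3 and 75.3 in KO VMs. In both, WT VM 1 was the highest and KO VM 1 the lowest, and the other libraries overlapped. The part of other cells in the values of the pathway genes was not tested. Over both cell types *Rgs2* was at -1.23, or -0.63 without WT PC 2, and *Kcnj3* at 0.48. DESeq2 called 1 pathway gene there, *Pkib*, which had at most 53 counts in a library.

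**Figure D4:**
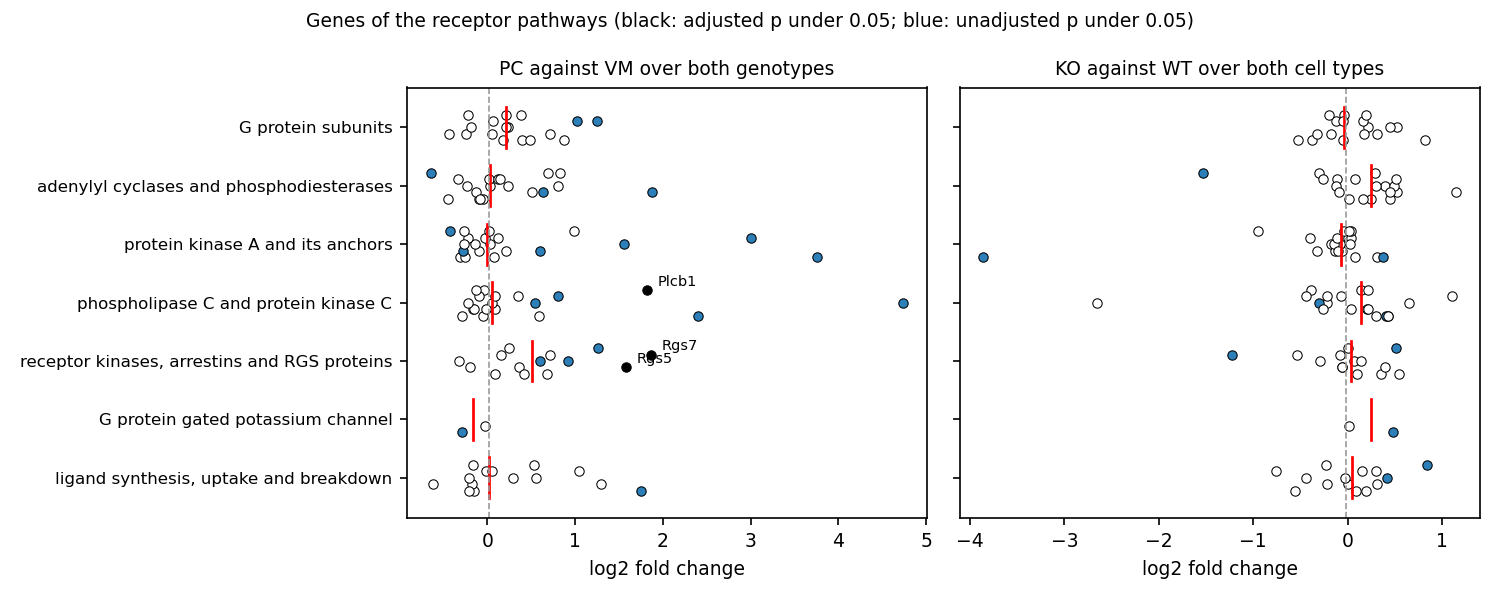
Log2 fold changes (x axis) of the pathway genes by list, for PCs against VMs over both genotypes (left) and KO against WT over both cell types (right). Each point is a gene, red bars are list medians and the dashed line is the median of all genes. *Rgs7*, *Plcb1* and *Rgs5* are the 3 genes in black (adjusted p under 0.05), all on the left.

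Markers of the nerves that release the ligands gave few counts. The autonomic neuron markers *Th*, *Chat*, *Snap25*, *Tubb3* and *Rbfox3* had no count in any library. The summed level of the 10 markers of that list was 10.1 to 58.5 normalized counts in PCs and 5.65 to 20.6 in VMs. Of these, *Dbh* and *Stmn2* were tested in WT PC against WT VM, at 1.46 and 1.95 (unadjusted p = 0.152 and 0.102, edgeR). In KO PC against WT PC the 2 markers tested were at -1.18 and -1.89, with 0 unadjusted p under 0.05 in edgeR. The Schwann cell marker *Sox10* had no count in any library, and the 5 markers of that list summed to at most 12.2. The cardiomyocyte markers, 9 genes, summed to 407617 to 662249 in PCs and 580875 to 709124 in VMs.

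For each receptor the genes with the most similar profile over the 12 libraries were found among 8100 genes by Pearson correlation of log2 normalized counts, as a description only, since the libraries share depth and sort. *Drd2* was most like *Ephb1* (r = 0.97), *Stard10* (0.96) and *Cntn2* (0.96), and these values were 0.97, 0.98 and 0.96 without WT PC 2. *Adora1* was most like *B4galt6* (0.93), *Pdzrn3* (0.89) and *Rpl6* (0.89), with 0.92, 0.75 and 0.80 without it. *Chrm2* reached 0.87 with *Bhlhb9*, 0.84 with *Cabcoco1* and 0.82 with *Fbxo10*. *Adrb1* reached 0.99 with *Pcnx*, 0.99 with *Vti1b* and 0.98 with *Ndst1*, but 0.74, 0.67 and 0.69 without WT PC 2. *Adra1a* reached 0.97 with *Fam185a*, 0.97 with *Bcl7a* and 0.97 with *Nap1l1*, but 0.75, 0.75 and 0.76 without it. *Adra1b* was most like *Rpap2*, *Fmc1* and *Msrb1* (each 0.93), with 0.89, 0.87 and 0.88 without it.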

How the data were processed

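RNA of PCs and VMs sorted from hearts of WT and KO mice was amplified and sequenced as 50 bp paired ends. The authors aligned it with STAR 2.5.0c to mm10, guided by the GTF GRCm38.74, and counted pairs per gene with HTSeq 0.6.0. The deposited values are these raw counts, 1 file per library, not normalized, with strand setting not given in the sources used here. Pairs that HTSeq placed on no gene, 40.0% to 73.6% of a library with those not aligned, were left out. Total counts on genes were 13883427 to 42505705. No pair of replicates agreed within sampling noise.

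Groups followed the sample titles. Counts were analysed in R 4.3.3 with edgeR 4.0.16 (TMM, mean normalized count above 5, glmQLFit and glmQLFTest, Benjamini-Hochberg adjustment over all genes tested). Two-group comparisons used their 6 libraries, and the others all 12. A called gene has an adjusted p under 0.05, and the unadjusted p, which the study used, stands beside it. Standard errors follow from the F statistic. Exact permutation tests were two-sided, on log2 normalized counts plus 2, for 6 receptors in 6 comparisons. Those of *Drd2* relative to *Cntn2* and to the PC markers used log2 ratios of raw counts. Levels per kilobase used exon lengths of GENCODE M21, which also gave positions. The floor of 3 counts and all intervals cover counting or library spread only, since read pairs are not independent molecules. Genes named beside the 6 receptors are, from each list, those past the adjustment and up to 3 with the smallest p under 0.05 in a comparison, the genes between *Drd2* and *Ncam1*, and the 3 most similar genes of each receptor. Genes without a call that are named for their level, such as *Gnas*, *Kcnj5* and the other receptors, fall outside it and were chosen after their values were seen. The members and lists were chosen with earlier results of these data known. Alternatives were DESeq2 1.42.0, its size factors in edgeR, TMM without mitochondrial genes, filterByExpr, no filter, limma 3.58.1 voom with quality weights, 1 fit of 12 libraries, a replicate block and the omission of each library. Fits of most comparisons were also tested on simulated counts with the same dispersion for all genes and changes only in well-detected genes. That setting had no outlying library and no change in genes near the floor, so it does not cover those.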

Additional observations from a re-analysis of the deposited data

How the results depend on the processing

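The rise of *Drd2* in PCs over both genotypes passed the adjustment under every alternative run, with log2 changes of 5.02 to 6.29. For *Drd2* in WT PC against WT VM the change was 6.02 to 7.17 with each library left out, and the number of receptors called was 0 to 1. In KO PC against KO VM the number called was also 0 to 1 with each library left out, and 0 with DESeq2, with filterByExpr, with limma voom and in 1 fit of all 12 libraries. For KO PC against WT PC the change of *Drd2* was -3.44 to -1.52 with each library left out, and without a filter on low counts it was -2.19 and 1 receptor was called, as were 132 of 21610 genes. The cause of these changes was not tested. Relative to *Cntn2* and to the PC markers, the change was -0.83 and -1.27.

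No label says whether replicate numbers in the titles pair the libraries. PC and VM libraries were correlated over 8100 genes after centring on the group means. Those of the same number correlated at 0.21, 0.081 and 0.15 in WT and at -0.0096, 0.12 and 0.019 in KO. In WT, those of different numbers correlated at -0.17 to 0.019. KO PC 1 and KO PC 3 correlated more with a KO VM library of another number. With a replicate block the change of *Drd2* in WT PC against WT VM was 6.56 (adjusted p = 0.0845) and 0 receptors were called. For KO PC against WT PC the change of *Drd2* with the block was -2.58 (adjusted p = 0.545). That block joined KO and WT libraries by title number alone, and these cannot share an animal. Over all genes the block moved the calls from 13 to 4 in WT PC against WT VM and from 166 to 90 in PCs against VMs.

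Directions turned only where no call was made. With limma voom the change was -0.21 for *Adra1b* in WT PC against WT VM, 0.11 for *Adora1* in KO PC against KO VM, -0.039 for *Adrb1* and 0.062 for *Adra1b* in KO PC against WT PC, -0.16 for *Adora1* in KO VM against WT VM, 0.024 for *Adra1b* in the difference of genotype effects, and -0.072 for *Adrb1* and 0.054 for *Adra1b* in KO against WT. For *Adra1b* in PCs against VMs it was 0.019 with DESeq2 and 0.014 with its size factors. With each library left out, in WT PC against WT VM *Adra1b* ran from -0.29 to 0.57 and *Chrm2* from -0.0037 to 0.29. For KO PC against KO VM *Adra1a* ran from -0.27 to 0.040 and *Adora1* from -0.47 to 0.0085. For KO PC against WT PC *Adrb1* ran from -0.31 to 0.71 and *Adra1b* from -0.72 to 0.16. In KO VM against WT VM *Adra1a* ran from -0.30 to 0.12, *Adra1b* from -0.072 to 0.51 and *Adora1* from -0.12 to 0.39. In the difference of genotype effects *Adrb1* ran from -0.17 to 0.75. In PCs against VMs *Adra1b* ran from -0.31 to 0.11. In KO against WT *Adrb1* ran from -0.21 to 0.23, *Adra1b* from -0.23 to 0.20 and *Chrm2* from -0.077 to 0.070. In none of 48 checks of the group levels under the other 2 scalings did a level move by more than 1 SD. With 3 libraries a group, and 0 to 109 counts of *Adrb1* in a library, small changes of the weaker receptors could not be detected.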
